A study of Mus musculus with 2 samples.

Results

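The genes of glycogen synthesis and breakdown are described here in adult mouse heart, as 9 members chosen by name: Ugp2, Gyg, Gys1 and Gbe1 of synthesis, the phosphorylases Pygm, Pygb and Pygl, and the phosphorylase kinase subunits Phka1 and Phkg1. They are 9 of the 43346 gene identifiers measured. No measured value was used to choose them, but earlier results of these data were known at the time. The libraries came from heart tissue of C57BL/6J mice, an inbred laboratory strain, as adults of 8 weeks, from both sexes according to the labels, with no treatment or genetic change named. There is 1 group of 2 libraries, replicate 1 and replicate 2, made as stranded paired reads of 76 nucleotides from polyadenylated RNA longer than 200 nucleotides. Per the labels they are biological replicates whose biosamples differ while the donor record is shared. Counts of sex-linked genes, given below, show that the libraries do not share 1 animal or pool. The spread between them may still be partly technical. A single group gives no contrast between conditions and no degrees of freedom to test the libraries against each other, so no p-values are given. What follows are the levels of the genes, their order inside a library and the ratio of one library to the other.

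Glycogen is the branched glucose store of animal cells. Glucose 1-phosphate is activated to UDP-glucose by the enzyme that Ugp2 encodes, glycogenin (Gyg) starts a chain on itself, glycogen synthase (Gys1 in muscle, Gys2 in liver) lengthens it, and the branching enzyme (Gbe1) adds the branch points. Glycogen phosphorylase releases glucose 1-phosphate from the chain ends and exists in a muscle form (Pygm), a brain form (Pygb) and a liver form (Pygl). Phosphorylase kinase switches phosphorylase on by phosphorylating a serine near its amino terminus, in response to calcium, which binds its calmodulin subunit, and to adrenaline. In the heart glycogen is known as a rapid reserve for contraction under stress and low oxygen.

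The 3 phosphorylases are paralogs on different chromosomes, and the stretch of coding sequence that holds the regulated serine is shown because the results turn on which of the 3 is transcribed. The first 60 coding bases of the leading transcript of each gene, from GENCODE M21 transcripts on GRCm38, lie at chr19:6384479-6384538 (plus strand) for Pygm, chr2:150786868-150786927 (plus strand) for Pygb and chr12:70227524-70227583 (minus strand) for Pygl, each in a first coding exon. Capitals mark codon 15, the serine codon.
Pygm: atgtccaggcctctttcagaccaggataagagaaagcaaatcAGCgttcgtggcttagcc
Pygb: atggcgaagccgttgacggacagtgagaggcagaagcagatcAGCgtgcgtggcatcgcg
Pygl: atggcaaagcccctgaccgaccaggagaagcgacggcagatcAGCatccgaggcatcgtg
The serine codon was spelled the same way in all 3 genes. Of the first 60 bases, 39 were identical between Pygm and Pygb, 41 between Pygm and Pygl, and 44 between Pygb and Pygl. Over the whole aligned coding sequences, of 842, 843 and 850 codons, identity was 77.26% for Pygm and Pygb, 74.31% for Pygm and Pygl and 74.48% for Pygb and Pygl. Stretches of 50 identical bases, counted at every start position over the whole leading transcripts with their untranslated ends, were rare. Pygm and Pygb shared 13, and either of the other pairs shared 0. Overlapping stretches count separately, so the 13 can lie in fewer runs. The posterior SD of the deposited gene count was 0 for each phosphorylase in both libraries, so the estimation divided no detectable number of fragments between these genes and others.

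Replicate 1 held 57464573 estimated counts and replicate 2 held 62912053. The 6 cardiomyocyte markers summed to 26524 TPM (a length-corrected level that sums to a fixed total in each library) in replicate 1 and 31707 TPM in replicate 2. Of these 6, Tnni3 had 4631 and 11030 TPM, a ratio of 1.90 by the TMM-scaled counts described next, and by those counts none of the 6 reached 2-fold. Although the labels describe both sexes, the X-inactivation RNA Xist was counted 13725 times in replicate 1 and 13 times in replicate 2, while 4 genes of the Y chromosome summed to 0 and 2916 counts. A difference between these libraries and a difference between the sexes therefore cannot be told apart for any gene below, the X-linked Phka1 included. Transcripts of the mitochondrial genome took 46.5% of TPM in replicate 1 and 30.6% in replicate 2, which moves the TPM of every other gene. Levels are therefore given in TPM within a library, and the libraries are compared by TMM-scaled counts, a scaling by the trimmed mean of gene ratios. By that scaling 2050 of 16145 genes that reached 20 counts in sum differed at least 2-fold (12.7%), 1415 of them higher in replicate 2 (8.76%) and 635 higher in replicate 1 (3.93%). Of these, 69.0% were thus higher in replicate 2, against 79.6% by TPM and 48.0% by TPM rescaled over nuclear genes, which shift the median gene by a log2 of 0.18 and -0.21, while total counts shift it by 0.11.

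The 9 genes spanned a wide range of levels, and the phosphorylases held most of the total. Pygm led with 566.16 TPM in replicate 1 and 589.73 TPM in replicate 2 (578 ± 16.7, SD, n = 2). Then came Pygb, Gyg, Gys1, Ugp2, Phkg1, Gbe1, Phka1 and Pygl, in the order of their means. By TPM of all transcripts, the lowest library of each gene lay above the highest library of the next, with exceptions. The ranges of Ugp2 and Phkg1 overlapped, as did those of Phka1 and Pygl. The overlaps rested on the unit. By TPM of protein-coding transcripts alone, Ugp2 (26.04 and 18.02) and Phkg1 (17.58 and 13.90) did not overlap. In that unit Gbe1 (9.73 and 7.26) overlapped Phka1 (7.73 and 6.08) and Pygl (3.26 and 7.78). Among 21474 protein-coding genes ordered by TPM, Pygm stood at rank 86 in replicate 1 and 114 in replicate 2, and Pygb at rank 269 and 345. The whole set summed to 933.44 and 956.75 TPM, of which the phosphorylases held 750.51 and 779.55 TPM, the 4 synthesis genes 153.46 and 152.43 TPM, and the 2 kinase subunits 29.47 and 24.77 TPM.

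**Figure D1:**
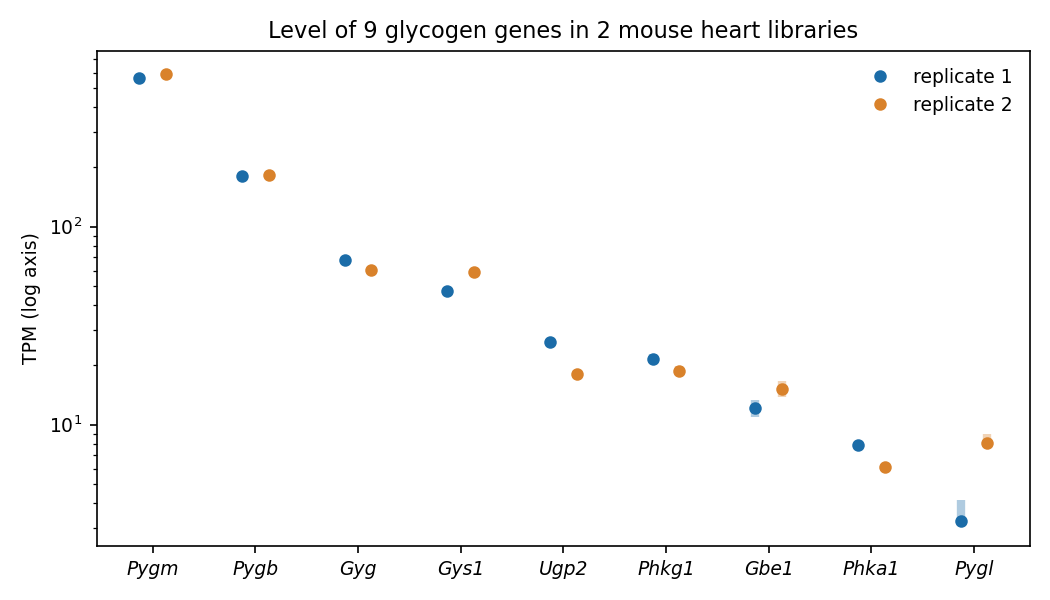
Level of each of the 9 genes in TPM on a log axis, with blue points for replicate 1, orange points for replicate 2 and pale bars for the interval the authors deposited, whose level is not stated. Pygm lies highest at 566.16 and 589.73 TPM, and Pygl lowest on average at 3.26 and 8.07 TPM, with the widest gap between the libraries.

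Between the libraries, 1 of the 9 genes, Pygl, differed at least 2-fold by TMM-scaled counts, higher in replicate 2, and 0 were that much higher in replicate 1. Read against 8.76% and 3.93% of all tested genes, a count of 1 in 9 is near the background. Of the other 8, Gys1 was slightly higher in replicate 2 and 7 were higher in replicate 1. Of all 16145 tested genes, 7880 were higher in replicate 2 and 8265 in replicate 1. The median log2 ratio of replicate 2 to replicate 1 was -0.34 over the 9 genes and -0.01 over all tested genes by TMM-scaled counts. By TPM the same medians were 0.01 and 0.18. Across 8 scalings (TMM, total counts, DESeq2 size factors, GC bins, length bins, TPM, TPM over nuclear genes and TPM of protein-coding transcripts) the direction held for Pygl (higher in replicate 2) and for Gyg, Phka1, Phkg1 and Ugp2 (higher in replicate 1). For Gys1, Gbe1, Pygm and Pygb the sign changed under at least 1 scaling, and these 4 are given below without a settled direction.

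**Figure D2:**
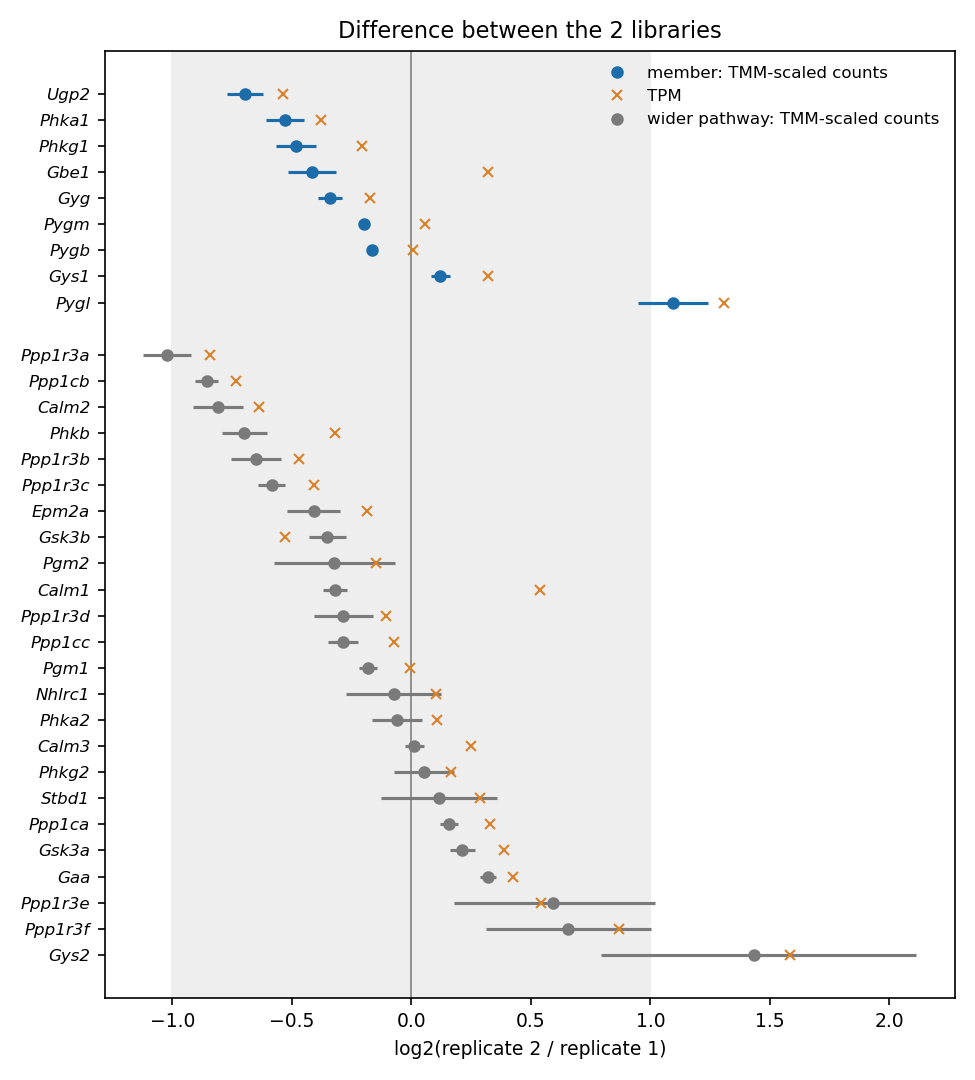
Log2 ratio of replicate 2 to replicate 1 for the 9 genes (blue) and for other glycogen genes with enough counts (grey), by TMM-scaled counts with an exact 95% interval that covers counting error only, and by TPM (orange crosses). The grey band marks less than 2-fold. Pygl lies beyond it at 1.09 and Ugp2 lies farthest to the other side among the 9 at -0.70.

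Synthesis. Ugp2 (ENSMUSG00000001891.12, chr11:21321138-21371201, minus strand), which makes the UDP-glucose that glycogen synthase consumes, had 26.14 TPM in replicate 1 and 18.02 TPM in replicate 2 (22.1 ± 5.74, n = 2). Its counts were 3453 and 2545. By TMM-scaled counts replicate 1 was 1.62-fold higher, with a 95% interval of 1.54 to 1.71 that covers counting error only. Ugp2 has the lowest GC content of the 9 genes, 39.1%, and when each ratio was taken relative to genes of like GC content the log2 ratio of replicate 2 to replicate 1 was -0.13, against -0.70 without that step. Pgm1, the main phosphoglucomutase, which supplies the step before, had 83.22 and 82.99 TPM and lay 3.18-fold above Ugp2 in replicate 1 and 4.61-fold in replicate 2.

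Gyg (ENSMUSG00000019528.14, chr3:20122084-20155317, minus strand), the self-glucosylating primer protein, had 68.01 and 60.40 TPM (64.2 ± 5.38, n = 2). It was 1.27-fold higher in replicate 1 by scaled counts (95% interval 1.22 to 1.31). Gys1 (ENSMUSG00000003865.10, chr7:45434844-45456619, plus strand), the muscle glycogen synthase, had 47.19 and 58.89 TPM (53.0 ± 8.27, n = 2). Scaled counts put Gys1 1.09-fold higher in replicate 2 (95% interval 1.06 to 1.12), but its log2 ratio turned to -0.11 relative to genes of like GC content and to -0.06 by TPM over nuclear genes. Within a library Gyg exceeded Gys1 by TPM, by 1.44-fold in replicate 1 and by 1.03-fold in replicate 2. In that unit the primer and the synthase were close in level, with the same order in both libraries. The gap was smaller than its own spread (log2 0.28 ± 0.35, n = 2). By counts, which are not divided by length, the order was the reverse in both libraries. Gys1 had 9328 and 12116 counts and Gyg had 6346 and 5986.

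Gbe1 (ENSMUSG00000022707.12, chr16:70313949-70569716, plus strand), the branching enzyme, had 12.12 and 15.12 TPM (13.6 ± 2.12, n = 2). Counts and TPM of Gbe1 pointed opposite ways. Its 1729 and 1549 counts gave a level 1.33-fold higher in replicate 1 (95% interval 1.24 to 1.43), whereas its TPM was higher in replicate 2 by a log2 of 0.32. The mean effective length that divides the counts was 2286 nucleotides in replicate 1 and 1558 in replicate 2, and a short transcript of the gene took a larger part there, as described with the transcripts below. Summed over protein-coding transcripts alone, Gbe1 had 9.73 and 7.26 TPM. Gys1 exceeded Gbe1 in both libraries, and the size of the gap rested on the unit. It was 3.89-fold in each library by TPM of all transcripts, 4.34-fold and 7.13-fold by TPM of protein-coding transcripts, and 5.40-fold and 7.82-fold by counts, which are not divided by length.

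Glycogen synthase transcripts in these hearts were nearly all from Gys1. It held 99.6% of the summed TPM of Gys1 and Gys2 in replicate 1 and 99.1% in replicate 2. Gys2, the liver synthase, had 27 and 87 counts and was 2.70-fold higher in replicate 2 by scaled counts (95% interval 1.73 to 4.32). Adipocyte markers summed to 107.41 and 415.48 TPM, with 4 of 5 at least 2-fold higher in replicate 2 and none at 0. Liver markers went the other way, with 12.65 and 1.04 TPM, 5 of 5 higher in replicate 1, and Serpina1a at 0 in 1 library. Their part in the value of Gys2 was not tested.

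Phosphorylases. Pygm (ENSMUSG00000032648.10, chr19:6384399-6398459, plus strand), the muscle phosphorylase, had 67543 and 70230 counts, the most of the 9 genes. By scaled counts it was 1.15-fold higher in replicate 1 (95% interval 1.14 to 1.16), and its log2 ratio by TPM was 0.06. Pygb (ENSMUSG00000033059.7, chr2:150786735-150831758, plus strand), the brain phosphorylase, had 181.09 and 181.75 TPM (181 ± 0.467, n = 2) and 40481 and 43127 counts. It was 1.12-fold higher in replicate 1 by scaled counts (95% interval 1.11 to 1.14), and by TPM the log2 ratio was 0.01. Both genes lay within 1.15-fold between the libraries by scaled counts and by TPM, with a direction that depended on the unit, and relative to genes of like GC content their log2 ratios were -0.43 and -0.38.

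Pygl (ENSMUSG00000021069.12, chr12:70190811-70231488, minus strand), the liver phosphorylase, had 3.26 TPM in replicate 1 and 8.07 TPM in replicate 2, from 533 and 1359 counts. It was 2.14-fold higher in replicate 2 by scaled counts (95% interval 1.93 to 2.36, which includes 2). It stayed past 2-fold under 7 of the 8 scalings, and TPM over nuclear genes gave 1.90-fold. With bulk RNA, fewer cells of a type and less RNA per cell cannot be told apart. Several lists of markers of other cells and tissues were also higher in replicate 2. Markers of immune cells summed to 144.44 and 295.26 TPM (3 of 5 at least 2-fold higher in replicate 2, none at 0). Those of adipocytes summed to 107.41 and 415.48 TPM (4 of 5, none at 0). Those of lung summed to 0.23 and 1592 TPM (5 of 5, with Sftpb, Sftpa1 and Cldn18 at 0 in a library), of which Scgb1a1 alone had 0.18 and 1566.73 TPM. Those of red cells summed to 7592 and 94906 TPM (6 of 6, none at 0). Endothelial markers (127.71 and 130.41 TPM) and fibroblast markers (300.6 and 319.61 TPM) had 0 such genes in 4 each, and smooth muscle markers (404.84 and 396.36 TPM) had 1 in 4. The liver markers given above were higher in replicate 1 (5 of 5), the opposite direction to Pygl. Of 5 neuron and glia markers (6.35 and 8.90 TPM) 1 was higher in each library, and of 8 skeletal muscle markers (24.45 and 64.18 TPM) 4 could be compared and 2 were higher in replicate 2, with Myh1, Myh2 and Myh4 at 0 in a library. The part of these cells in the level of Pygl was not tested.

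The phosphorylase pool had nearly the same make-up in both libraries. Pygm held 75.4% of its TPM in replicate 1 and 75.7% in replicate 2 (75.5 ± 0.151, n = 2). Pygb held 24.1% and 23.3%, and Pygl 0.434% and 1.04%. Pygm exceeded Pygb 3.13-fold and 3.24-fold (log2 1.67 ± 0.04, n = 2), and Pygb exceeded Pygl 55.5-fold and 22.5-fold (log2 5.14 ± 0.92). These gaps between genes were larger than their spread. The size of the Pygm share rested on the unit: by counts, which are not divided by length, it was 62.2% and 61.2%, and by TPM of protein-coding transcripts alone it averaged 67.9%. In each of these units the order was Pygm, Pygb, Pygl.

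**Figure D3:**
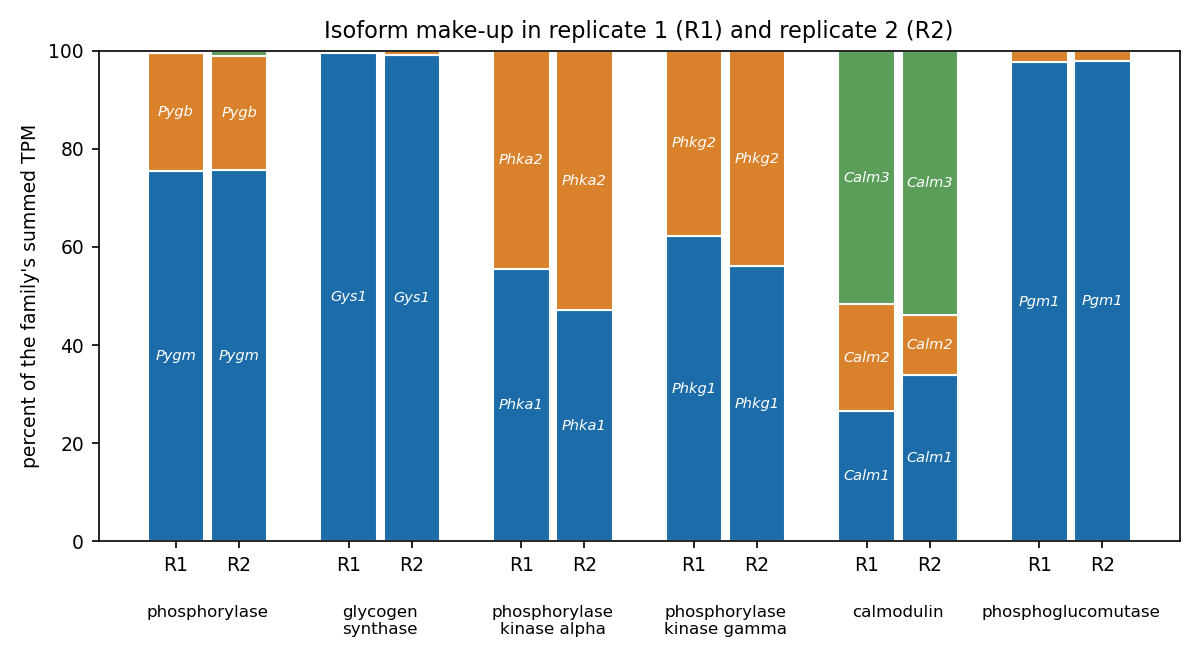
Make-up of 6 isoform families as percent of the summed TPM of each family, in replicate 1 (R1) and replicate 2 (R2), with 1 colour for each gene. Pygm takes 75.4% and 75.7% of the phosphorylases, Gys1 99.6% and 99.1% of the synthases, and Phka1 55.5% and 47.1% of the alpha subunits of phosphorylase kinase.

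Set against synthesis, phosphorylase transcripts were in excess in both libraries. Pygm exceeded Gys1 12.0-fold in replicate 1 and 10.01-fold in replicate 2 by TPM (log2 of Gys1 over Pygm -3.45 ± 0.18, n = 2). The log2 ratio was -3.03 for protein-coding transcripts alone and -2.70 by counts. Gaa, the lysosomal acid glucosidase that degrades glycogen by a separate route, had 65.14 and 87.41 TPM, and Pygm exceeded it 8.69-fold and 6.75-fold.

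Genes whose levels lay closest to Pygm and Pygb over the 2 libraries were found by the distance in log2(TPM + 1), a measure that with only 2 libraries reflects level and little else. For Pygm they were Cs (582.05 and 594.92 TPM, citrate synthase), Hadhb (604.35 and 627.14 TPM, a subunit of the mitochondrial trifunctional protein) and Sdhc (582.47 and 541.45 TPM, a subunit of succinate dehydrogenase). For Pygb they were Isca1 (177.08 and 172.10 TPM), Dynlrb1 (189.60 and 189.96 TPM) and Eif5a (189.31 and 191.48 TPM).

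Phosphorylase kinase. The enzyme is built of alpha and beta regulatory subunits, a gamma catalytic subunit and calmodulin. Phka1 (ENSMUSG00000034055.12, chrX:102513975-102644246, minus strand), the muscle alpha subunit, had 7.90 and 6.08 TPM (6.99 ± 1.29, n = 2) from 2802 and 2318 counts. It was 1.44-fold higher in replicate 1 (95% interval 1.37 to 1.53). Phkg1 (ENSMUSG00000025537.8, chr5:129863421-129898549, minus strand), the muscle gamma subunit, had 21.57 and 18.69 TPM (20.1 ± 2.04, n = 2) from 2496 and 2134 counts, 1.40-fold higher in replicate 1 (95% interval 1.32 to 1.48). Neither reached 2-fold.

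By TPM, unlike the synthase and the phosphorylases, the kinase had no clearly leading isoform. Phka1 held 55.5% of the alpha TPM in replicate 1 and 47.1% in replicate 2 (51.3 ± 5.93, n = 2), the rest being Phka2, the liver alpha subunit, with 6.34 and 6.83 TPM. The order of the 2 genes thus changed between the libraries by TPM, while by counts Phka1 held 66.7% and 59.2%. Phkg1 held 62.2% and 56.0% of the gamma TPM (59.1 ± 4.39, n = 2), the rest being Phkg2, the gamma subunit of liver and testis, with 13.09 and 14.67 TPM. By counts Phkg1 held 73.0% and 65.1%, more than the 62.2% and 61.2% that Pygm held of the phosphorylases in that unit. Phkb, the only beta subunit gene, had 8.36 and 6.70 TPM. Summed by subunit in TPM, gamma transcripts (34.66 and 33.36 TPM) exceeded alpha transcripts (14.24 and 12.91 TPM), which exceeded beta transcripts, in both libraries. By counts, which are not divided by length, alpha exceeded gamma in both libraries. Phka1 had 2802 and 2318 counts and Phka2 had 1398 and 1600. Phkg1 had 2496 and 2134 and Phkg2 had 924 and 1145. The calmodulin genes together had 139.26 and 158.63 TPM, with Calm3 leading (51.7% and 53.9%), but calmodulin serves many other proteins.

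Of 26 further glycogen genes, 25 had enough counts to compare. By TMM-scaled counts 1 was at least 2-fold higher in replicate 2 (Gys2), 1 at least 2-fold higher in replicate 1 (Ppp1r3a) and 23 were neither, against 8.76% and 3.93% of all tested genes. Their median log2 ratio was -0.28, with 9 above 0 and 16 below, against 7880 above and 8265 below of all tested genes. Ppp1r3a, the muscle subunit that targets protein phosphatase 1 to glycogen, had 2222 and 1307 counts and was 2.03-fold higher in replicate 1 (95% interval 1.90 to 2.18). It fell short of 2-fold by total counts, by TPM and relative to genes of like GC content or length. By DESeq2 size factors and by TPM over nuclear genes it stayed past 2-fold, at log2 -1.003 and -1.23. Ppp1r3g, another targeting subunit, had 3 and 10 counts and was not compared.

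Other genes of the list control the phosphorylation of synthase and phosphorylase. The 7 targeting subunits summed to 55.10 and 43.25 TPM, most of it from Ppp1r3c (34.88 and 26.29 TPM). The catalytic subunits of protein phosphatase 1 had 141.78 and 178.05 TPM for Ppp1ca, 35.83 and 21.57 TPM for Ppp1cb and 37.85 and 36.04 TPM for Ppp1cc. Gsk3a, a kinase that inactivates glycogen synthase, had 41.33 and 54.14 TPM, above Gsk3b with 7.50 and 5.20 TPM. Phkb was 1.62-fold higher in replicate 1 by scaled counts.

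Transcripts. The tables listed 46 transcripts of the 9 genes, of which 41 were found in GENCODE M21 and 5, all of Gys1, were not. The leading transcript was the same in both libraries for 8 of 9 genes by TPM and for 9 of 9 by counts. Among 5325 genes with at least 2 transcripts and a mean of at least 5 TPM, the leading transcript differed between the libraries in 13.7% by TPM and 8.45% by counts. The main form held nearly all of the TPM in both libraries for Pygb (Pygb-201, 96.3% and 96.9%), Gyg (Gyg-203, 95.9% and 94.6%), Pygl (Pygl-201, 100% and 96.0%) and Gys1 (Gys1-201, 89.5% and 87.9%). The share of the leading transcript differed by at least 10 percentage points between the libraries for 3 of 9 genes by TPM (Gbe1, Pygm and Phka1), against 28.6% of those genes, and for 1 of 9 by counts (Phka1), against 21.1%.

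Short transcripts annotated as retained introns took at least 20% of the TPM of 3 genes in the mean of both libraries, Gbe1, Pygm and Phkg1, as such or processed transcripts did in 27.6% of those genes. Pygm-203, of 532 nucleotides and 3 exons at the end of the gene (chr19:6397495-6398291), held 31.7% and 35.6% of Pygm by TPM but 5.43% and 6.58% by counts. Its level was 179.24 and 209.71 TPM, and the protein-coding transcripts of Pygm summed to 384.92 and 378.60 TPM. Phkg1-203, of 670 nucleotides, held 18.5% and 25.6% by TPM and 4.65% and 6.98% by counts. Gbe1-205, of 658 nucleotides and 2 exons (chr16:70560994-70569498), held 19.6% and 52.0% by TPM and 3.88% and 15.4% by counts. It had 67.05 and 238.23 counts, with a posterior SD of 16.8 and 15.6. Apart from the start of their first exon, Gbe1-205 and Pygm-203 lie within exons of Gbe1-203 and Pygm-201. Their shares therefore rest on dividing fragments between overlapping forms and do not measure retained intron. In Phkg1-203 the first exon has 627 bases, against 66 for the exon of Phkg1-201 inside it. TPM divides few fragments by a short effective length, so the share of such a transcript is several times larger by TPM than by counts, and the level of the gene by TPM rises with it.

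**Figure D4:**
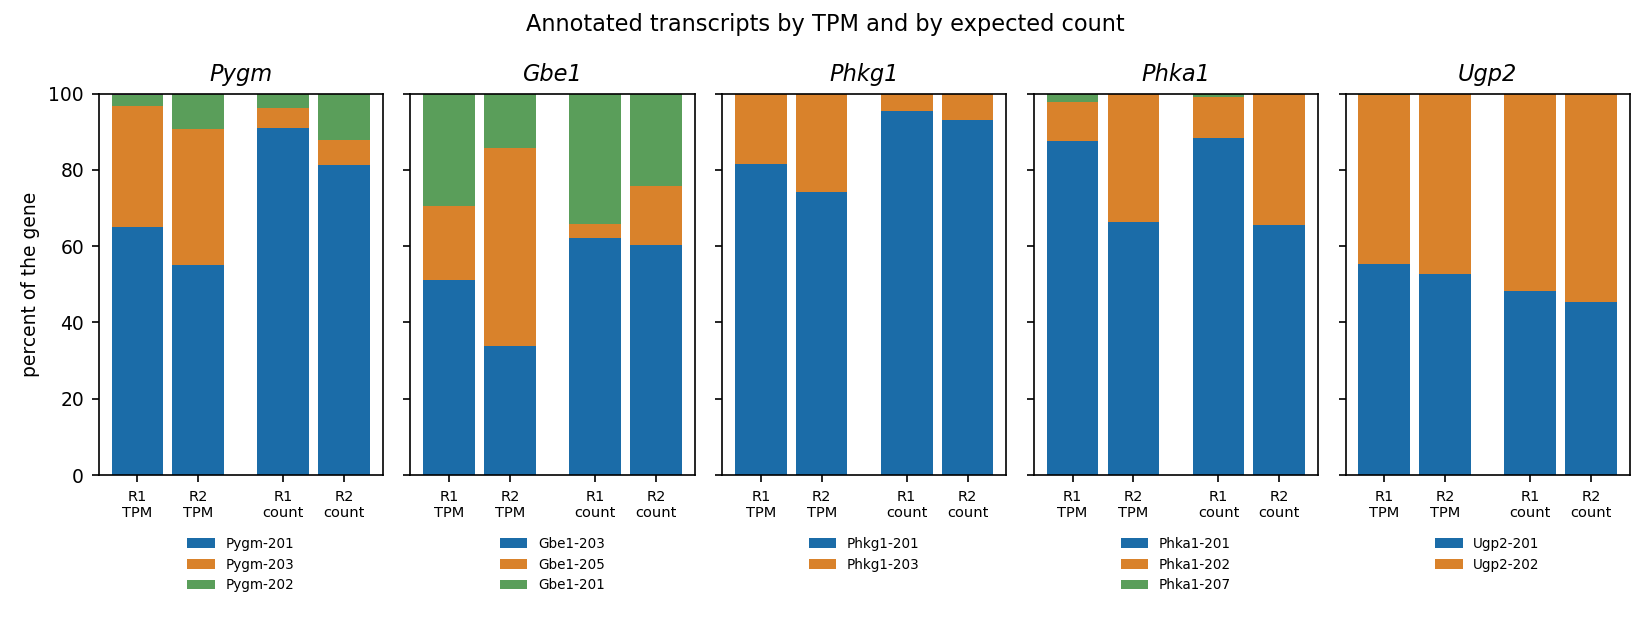
Share of the leading annotated transcripts of 5 genes in percent of the gene, by TPM and by expected count, in replicate 1 (R1) and replicate 2 (R2). The retained-intron forms (Pygm-203, Gbe1-205 and Phkg1-203, orange) are large by TPM and small by count, while Phka1-202 is larger in replicate 2 by both.

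Pygm had a second coding form. Pygm-202 joins the first exon to part of the fourth, skips exons 2 and 3 of Pygm-201 and has a coding sequence shorter by 264 bases, or 88 codons. It was estimated at 16.46 TPM in replicate 1 (deposited interval 11.2 to 24.5) and 54.21 TPM in replicate 2 (46.0 to 60.5). Of Pygm-201 and Pygm-202 together it made 4.28% and 14.3% by TPM, and 3.83% and 12.96% by counts. The estimate rests on dividing fragments between forms that share most exons, and the posterior SD of its 2443 and 8500 counts was 532 and 579.

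Of 6 coding transcripts listed for Phka1, the 2 with estimated counts differ by a cassette exon of 177 bases, which adds 59 codons in frame. Phka1-202 holds the exon and Phka1-201 lacks it, and a form without this stretch is known as the alpha prime subunit of slow and cardiac muscle. Phka1-203 to Phka1-206, at 0 counts in both libraries, also hold the exon, as does the retained-intron form Phka1-207 (27.34 and 0 counts). The shares below are therefore of Phka1-202 and not of the exon itself. The exon is shown because Phka1 was the gene whose leading transcript moved most in share between the libraries, by 22.7 percentage points by counts and 21.3 by TPM. It lies at chrX:102557096-102557272 on the minus strand, exon 19 of 33 in Phka1-202.
Phka1 cassette exon: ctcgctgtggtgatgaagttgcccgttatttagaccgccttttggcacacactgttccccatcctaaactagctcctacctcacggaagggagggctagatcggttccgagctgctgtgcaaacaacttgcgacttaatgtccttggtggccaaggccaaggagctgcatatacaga
The form without the exon led in both libraries, with 87.6% and 66.3% of Phka1 by TPM. Of the 2 forms together the form with the exon made 10.5% in replicate 1 and 33.7% in replicate 2 (22.1 ± 16.4, n = 2), and 10.8% and 34.4% by counts. Its counts were 300.54 and 797.04, with a posterior SD of 103 and 124. The deposited intervals of its TPM, 1.7e-05 to 0.978 in replicate 1 and 1.15 to 2.42 in replicate 2, did not overlap.

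Ugp2 has 2 main coding transcripts with different annotated starts. Ugp2-201 starts at position 21371201 of chromosome 11 and Ugp2-202 at 21370477, with coding sequences of 1491 and 1524 bases without the stop codon, and both were estimated at close to equal levels. Ugp2-201 held 55.4% and 52.8% of the gene by TPM and 48.1% and 45.4% by counts. Ugp2-202 held 44.3% and 47.2% by TPM and 51.8% and 54.6% by counts. Which transcript led therefore depended on the unit, and within each unit the same transcript led in both libraries. The pair also differs at the 3′ end, with last exons of 457 bases in Ugp2-201 and 992 bases in Ugp2-202, so these shares are of whole transcripts and the use of each start was not measured.

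The 250 bases before each Ugp2 start in RefSeq (GRCm38.p6), and those before the single start of Pygm, the member of highest level, are shown to set the 2 annotated Ugp2 promoters side by side and the strongest gene beside them. RefSeq puts the Ugp2 starts at 21371267 and 21370629, upstream of the GENCODE starts. It puts the Pygm start at 6384408, downstream of the GENCODE start of Pygm-201 at 6384399. The windows are chr11:21371268-21371517 and chr11:21370630-21370879 on the minus strand and chr19:6384158-6384407 on the plus strand, and capitals mark matches to the E-box CANNTG, the motif that MyoD-type and other helix-loop-helix factors bind.
Ugp2 upstream start: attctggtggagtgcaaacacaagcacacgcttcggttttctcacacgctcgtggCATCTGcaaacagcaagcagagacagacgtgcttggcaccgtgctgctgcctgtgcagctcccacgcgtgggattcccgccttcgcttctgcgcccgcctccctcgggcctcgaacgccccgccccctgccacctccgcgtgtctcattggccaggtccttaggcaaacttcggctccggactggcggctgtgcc
Ugp2 downstream start: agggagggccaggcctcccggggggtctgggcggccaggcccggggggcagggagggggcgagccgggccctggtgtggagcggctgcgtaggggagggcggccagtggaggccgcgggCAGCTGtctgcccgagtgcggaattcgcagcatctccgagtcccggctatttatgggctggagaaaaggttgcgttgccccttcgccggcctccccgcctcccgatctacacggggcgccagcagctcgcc
Pygm: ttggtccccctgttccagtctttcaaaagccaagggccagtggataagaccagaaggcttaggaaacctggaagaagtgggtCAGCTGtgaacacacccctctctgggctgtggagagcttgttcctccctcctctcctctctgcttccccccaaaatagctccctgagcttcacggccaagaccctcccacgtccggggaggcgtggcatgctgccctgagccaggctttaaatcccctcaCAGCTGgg
The windows of Ugp2 held 64.0% and 73.6% GC and that of Pygm 58.4%, against a median of 52.4% over all 32851 RefSeq promoters. On both strands, an E-box was present in 8 of 10 promoter windows of the 9 genes, and in 66.2% of all promoters. The genes without one in this window were Pygb and Pygl. The second E-box shown for Pygm, near the end of its window, lies within the first exon of Pygm-201. The letters AAGGTCA (4.08% of all promoters), known as the element of the estrogen-related receptors, TATAAA (12.4%) and TATTTTTA (2.45%), a core of MEF2 sites, were in 0 of the 10 windows.  A match describes letters and not a bound site.

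Some annotated spans overlap other genes. Gys1 overlaps Ruvbl2 (1147 and 1773 counts) on the opposite strand by 3253 bases, and Phkg1 overlaps Sumf2 (254 and 339 counts) by 630 bases and Zbed5 (39.34 and 25.04 counts) on the opposite strand. On the same strand, the span of Phkg1 contains Chchd2, at 271.98 and 523.80 TPM, although the leading transcript Phkg1-201 does not reach it. The posterior SD of the Phkg1 count was 0 in replicate 1 and 0.04 in replicate 2. Pygl overlaps F730035M05Rik (0 and 2 counts), and Ugp2 overlaps Gm12043 (0 and 1 counts) and Mir1933 (0 and 0 counts). The libraries were stranded according to the labels, but no source used here says whether the counting used strand.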

How the data were processed

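Poly(A) RNA was measured in 2 heart libraries of 1 group, taken from the labels. For each library the authors deposited gene and transcript tables on mm10 with GENCODE M4, per the notes that accompany them. The sources used here do not give the aligner, the quantifier or their versions. Each deposited expected count is an estimated number of fragments, per the file headers. The deposited TPM divides them by effective length and sums to 1 fixed total in each library, and the deposited FPKM, used as an alternative, scales by length and depth, per the file headers. The authors also gave each transcript's percent of its gene, and shares were recomputed here. The bounds of the TPM interval, a signal on the TPM scale, were deposited without a stated level. Lists on mm9, with no library named, were not used here.

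Of 43346 gene identifiers 42462 (98.0%) matched GENCODE M21, the source of symbols, coordinates and GC content. Other entries (26345 rows; 1.65% and 1.72% of counts) were left out of library sizes. Counts were rounded. TMM factors (0.957 and 1.04) came from edgeR 4.0.16 in R 4.3.3. With 2 libraries of 1 group no model could be fitted, so a fold of at least 2 with at least 20 counts stands in for a test, with exact 95% binomial intervals (counting error only). A count of 3, taken as the floor, is 0.0555 and 0.0464 CPM. Alternatives were total counts, DESeq2 1.42.0 size factors, 20 GC bins, 20 effective-length bins, no filter, and other units. Only the step that calls a fold between libraries was tested on simulated counts, which held counting noise alone. Python 3.11.15, pandas 2.3.3, scipy 1.17.1, matplotlib 3.10.9 and Biopython 1.88 were used.

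The members and lists were chosen with earlier results of these data known. Named were all 9 members, family partners of members, other glycogen genes past the fold or above the median member, the 3 genes nearest in level to Pygm and to Pygb, and overlapping genes. Gsk3b, Ppp1r3g, individual markers, Xist and transcripts were chosen after their values were seen. Proteins were not used here. Values of 1 gene of the wider list are not reported here.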

Additional observations from a re-analysis of the deposited data

How the results depend on the processing

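No paired analysis was possible because there is 1 group and no second group to pair. Of the 9 members 1 was past 2-fold under TMM, total counts, DESeq2 size factors, GC bins, length bins, TPM and with no filter, and 0 under TPM rescaled over nuclear genes, a setting chosen after seeing the data. Of the wider list 2 were past 2-fold by TMM or DESeq2 size factors and 1 by total counts, GC bins, length bins or TPM. With no filter 3 were past it, and 4 by TPM over nuclear genes. The wider genes added by TPM over nuclear genes were Calm2 and Ppp1cb, at log2 -1.02 and -1.12. The Pygm share of 75.5% became 61.7% by expected counts and 67.9% over protein-coding transcripts, a setting chosen after seeing the data, and was 75.4% to 75.7% leaving out either replicate. The log2 ratio of Gys1 over Pygm, -3.45, became -2.70 by expected counts and -3.03 over protein-coding transcripts, and was -3.58 to -3.32 leaving out either replicate. Over protein-coding transcripts the level of 4 members moved by more than the SD of their 2 libraries and that of 5 did not. Without replication beyond 2 libraries of 1 group, no difference between them could be told from chance, and counting intervals understate that spread.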
